A study of Mus musculus with 52 samples.

Results

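Liver zonation marker genes were followed in mouse liver after single doses of 6 genotoxic and 2 non-genotoxic chemicals. The set held 10 genes that mark the ends of the liver lobule, of which Glul, Lgr5, Axin2, Oat, Rhbg and Slc1a2 are pericentral and Gls2, Hal, Sds and Cps1 are periportal. All probe sets whose only gene symbol in the array annotation was one of these names were taken. They numbered 10 of 22626 probe sets and covered 8 of the 10 genes, since no probe set carried Gls2 or Sds as its single symbol. Of these 10, 9 passed the filter on low signal. They stood for 8 of the 10755 genes with a probe set kept after that filter.

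Male B6C3F1 mice, 9 weeks old, received one intraperitoneal dose, and livers were taken at 4 h, 20 h, 14 days and 28 days. Of the genotoxic chemicals, the alkylating agents were dipropylnitrosamine (DPN) at 250 mg/kg, dimethylnitrosamine (DMN) at 5 mg/kg and ethylnitrosourea (ENU) at 150 mg/kg. The aromatic ones were dibenzo[a,l]pyrene (DBP) at 6 mg/kg, 7,12-dimethylbenzanthracene (DMBA) at 20 mg/kg and o-aminoazotoluene (AAT) at 300 mg/kg. Phenobarbital (PB) at 30 mg/kg and ethanol (EtOH) at 1000 mg/kg were the non-genotoxic ones. At each time 1 olive oil control array was shared by AAT, DMBA and DBP. ENU, DMN and DPN had 1 saline control array each, named by the chemical below. EtOH and PB shared 1 further saline array, called the saline control below. This gave 13 arrays a time and 52 in all. Aromatic chemicals thus had olive oil controls and alkylating ones saline controls, so chemical type and vehicle cannot be told apart. Each array held RNA pooled from 5 mice and was not repeated, so that the spread between mice is unknown. In class comparisons p-values measure only the spread between chemicals within a class, pooled over both classes. For 1 chemical over its times they measure a spread pooled over all chemicals and times, not that of the chemical itself.

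Zonation is the division of labour along the blood path of the liver lobule. Hepatocytes near the portal vein, which receive blood rich in oxygen, make urea and break down amino acids, whereas hepatocytes around the central vein scavenge the remaining ammonia as glutamine. WNT ligands from the endothelial cells of the central vein keep the pericentral program on through beta-catenin. Glul encodes glutamine synthetase, which is confined to a thin ring of hepatocytes at the central vein. In whole-liver RNA, fewer pericentral cells and less RNA in each such cell cannot be told apart.

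Some arrays stood apart from the rest. Array medians before scaling ran from 17.9 (PB at 28 days) to 205.1 (DMN control at 14 days). The EtOH array of 20 h had log2 ratios of 3′ to 5′ probe sets of 3.13 for Gapdh, whereas all other arrays lay between -0.51 and 0.34. The saline control of 20 h gave a log2 signal of 11.48 for Cyp2b10, a gene that phenobarbital is known to induce, against 6.19 to 7.26 in the other 4 controls of 20 h and 8.25 in the PB array itself, so the library labelled as the saline control of 20 h went against its label. This limit holds for every value that uses an array of the EtOH and PB set at 20 h, also where it is not repeated. Hepatocyte markers (Alb, Apoa1, Ttr, Apob and Serpina1a, of which 4 had a probe set) were far above background in every control and genotoxic array of 4 h and 20 h. Their summed signals ran from 28440 to 54720, and the EtOH and PB arrays are not in this range.

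The upstream sequence is shown for the 3 pericentral genes whose ratios moved most alike and for the periportal gene Hal, since these members carry the comparisons that follow. RefSeq promoter sequence (GRCm38.p6) was found for 5 of the 10 members, namely Glul, Axin2, Oat, Slc1a2 and Hal. The 250 bases before the start are printed in the direction of the gene, with capitals for the TCF/LEF core CTTTGA on either strand. Glul lies on chromosome 1 (chr1:153899679-153899928, plus strand), Oat on chromosome 7 (chr7:132576399-132576648, minus strand), Slc1a2 on chromosome 2 (chr2:102706188-102706437, plus strand) and Hal on chromosome 10 (chr10:93488518-93488767, plus strand).
Glul: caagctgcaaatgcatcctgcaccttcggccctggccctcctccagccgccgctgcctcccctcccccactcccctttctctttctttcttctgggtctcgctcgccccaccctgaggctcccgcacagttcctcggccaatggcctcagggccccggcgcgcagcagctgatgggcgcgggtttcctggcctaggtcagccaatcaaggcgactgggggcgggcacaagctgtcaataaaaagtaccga
Oat: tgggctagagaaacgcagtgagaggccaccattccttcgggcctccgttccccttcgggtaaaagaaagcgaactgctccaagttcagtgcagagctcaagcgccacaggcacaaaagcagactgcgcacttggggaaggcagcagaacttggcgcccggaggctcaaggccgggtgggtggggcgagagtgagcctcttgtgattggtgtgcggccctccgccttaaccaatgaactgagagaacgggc
Slc1a2: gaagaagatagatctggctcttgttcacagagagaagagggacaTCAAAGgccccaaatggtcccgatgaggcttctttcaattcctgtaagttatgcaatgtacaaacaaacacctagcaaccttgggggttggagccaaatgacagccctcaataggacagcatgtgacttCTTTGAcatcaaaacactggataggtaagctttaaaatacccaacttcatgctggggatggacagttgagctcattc
Hal: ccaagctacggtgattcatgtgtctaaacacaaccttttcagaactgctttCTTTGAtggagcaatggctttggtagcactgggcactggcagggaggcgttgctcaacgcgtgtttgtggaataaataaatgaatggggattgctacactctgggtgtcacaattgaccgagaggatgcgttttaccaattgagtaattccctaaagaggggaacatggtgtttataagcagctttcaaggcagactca
The motifs searched on both strands were 3, no matches of which overlapped in these windows: the TCF/LEF core CTTTGA, the cyclic AMP response element (CRE) core TGACG and the glucocorticoid receptor core TGTTCT. The Slc1a2 and Axin2 windows lie within the annotated spans of their genes (chr2:102658239-102790784 and chr11:108917828-108950783), so that they precede a transcript start other than the outermost one. The TCF/LEF core stood 206 and 77 bases before that start of Slc1a2 and 199 bases before that of Hal, and 13.8% of 32851 promoter windows held it. The glucocorticoid receptor core stood in the Axin2 window only among these genes, 152 bases before the start, against 16.1% of all windows. The CRE core, present in 17.8% of all windows, was in none of the 5, and the Glul and Oat windows held none of the 3 motifs. C and G made up 64.8% of the Glul window and 44.8% of the Slc1a2 window.

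**Figure D1:**
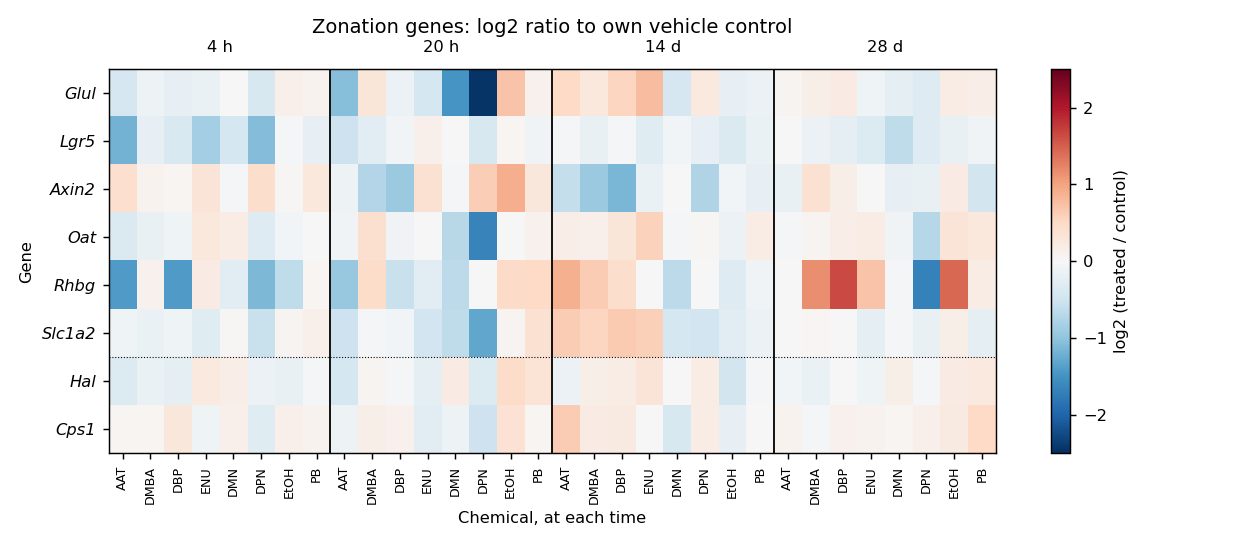
Log2 ratio of treated to own vehicle control for 8 zonation genes (rows, pericentral genes above the dotted line) in 8 chemicals at 4 times (columns), with blue for lower and red for higher signal. Glul was lowest in DPN at 20 h, at -2.44, while Hal and Cps1 stayed between -0.53 and 0.64.

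Glul gave the largest single change of the 8 genes, and it lay at 20 h. With a scaled signal, the 5 controls of 20 h were at 1332 (olive oil), 1817 (ENU control), 1635 (DMN control), 1708 (DPN control) and 1542 (saline). The genotoxic arrays of that time were at 634.4 (AAT), 1644 (DMBA), 1208 (DBP), 1345 (ENU), 588.9 (DMN) and 313.9 (DPN). AAT, DMN and DPN thus lay below all 5 controls by a wide margin, DBP lay just below them and ENU and DMBA lay among them. Against its own control Glul was 5.44-fold lower in DPN, 2.78-fold lower in DMN and 2.10-fold lower in AAT, which are log2 ratios of -2.44, -1.47 and -1.07. In DPN only 17 of the 18349 probe sets tested had a lower log2 ratio, and in DMN 41.

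A ratio of at least 2-fold was uncommon at that time. Over all probe sets and chemicals, 1.95% of ratios at 20 h were at least 2-fold lower, and 1.27% without the EtOH array. As a reference, pairs of the 4 arrays labelled as saline controls of 1 time differed at least 2-fold in either direction in 3.34% of probe sets at 4 h, 3.13% at 20 h, 4.81% at 14 days and 2.89% at 28 days. Treated pairs did so in 2.53%, 4.24%, 3.58% and 2.19%. The treated value of 20 h includes the EtOH array, with 6.7% of probe sets at least 2-fold lower and 8.63% at least 2-fold higher. The next highest at 20 h was DPN, with 2.25% and 2.35%. The saline pairs of 20 h include the array that went against its label, so they are not a sure reference without treatment. The DMBA ratio was 0.30, DBP was -0.14 and ENU was -0.43, so the 6 genotoxic chemicals did not move together.

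The second Glul probe set, the dimmer one, gave -2.23 in DPN, -2.14 in DMN and -1.27 in AAT. Across the 32 ratios of treated to control the 2 probe sets had a Pearson r of 0.85, and of 0.94 over the 31 ratios without EtOH at 20 h. In that EtOH array they went apart, with 0.70 for the brighter and -0.86 for the dimmer probe set, and this is the array with the high 3′ to 5′ ratios, whose part in the difference was not tested. PB at 20 h was at 0.10 and 0.25.

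When the 6 genotoxic chemicals were taken as a class against their own controls at 20 h (limma, with control set as a block), the log2 fold change of Glul was -1.07 (SE 0.41, n = 6) and the adjusted p was 0.96. None of the 8 genes was called, and 0% of the 18349 probe sets were called in that comparison. ENU, DMN and DPN each have their own control and weigh more in every class estimate than AAT, DMBA and DBP, which share a control. Leaving out DPN brought the Glul estimate to -0.67, a change of more than 1.5 times. At an unadjusted p under 0.05 there were 847 probe sets (4.62%), and Glul and Slc1a2 were the 2 members among them.

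At 4 h, Glul was below its control in all 6 genotoxic chemicals, from -0.42 (AAT) and -0.40 (DPN) to -0.01 (DMN), and above it in EtOH (0.13) and PB (0.08). The controls of 4 h ran from 1078 (DMN control) to 1747 (olive oil), a spread wider than any of these ratios. The class estimate was -0.21 (SE 0.08, adjusted p = 0.48). The second probe set gave -0.06 (SE 0.09), with 4 of 6 genotoxic ratios and that of PB below control. At 14 days the direction was the other one in 5 of 6 genotoxic chemicals, namely AAT (0.50), DMBA (0.27), DBP (0.53), ENU (0.77) and DPN (0.24), with DMN at -0.43. The olive oil ratios share 1 control, which at 942.2 was the lowest of the 5 at 14 days, and the DMN control was the array with the highest median. The class estimate at 14 days was 0.27 (SE 0.16, adjusted p = 0.49). Without ENU it was 0.13 and without DMN 0.47. The second probe set had 4 of 6 above control at 14 days, with AAT at 0.11 and DPN at -0.20, and a class estimate of 0.14 (SE 0.16). By 28 days the ratios of the brighter probe set were between -0.33 (DPN) and 0.20 (DBP), and those of the second between -0.66 (DPN) and 0.41 (EtOH).

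**Figure D2:**
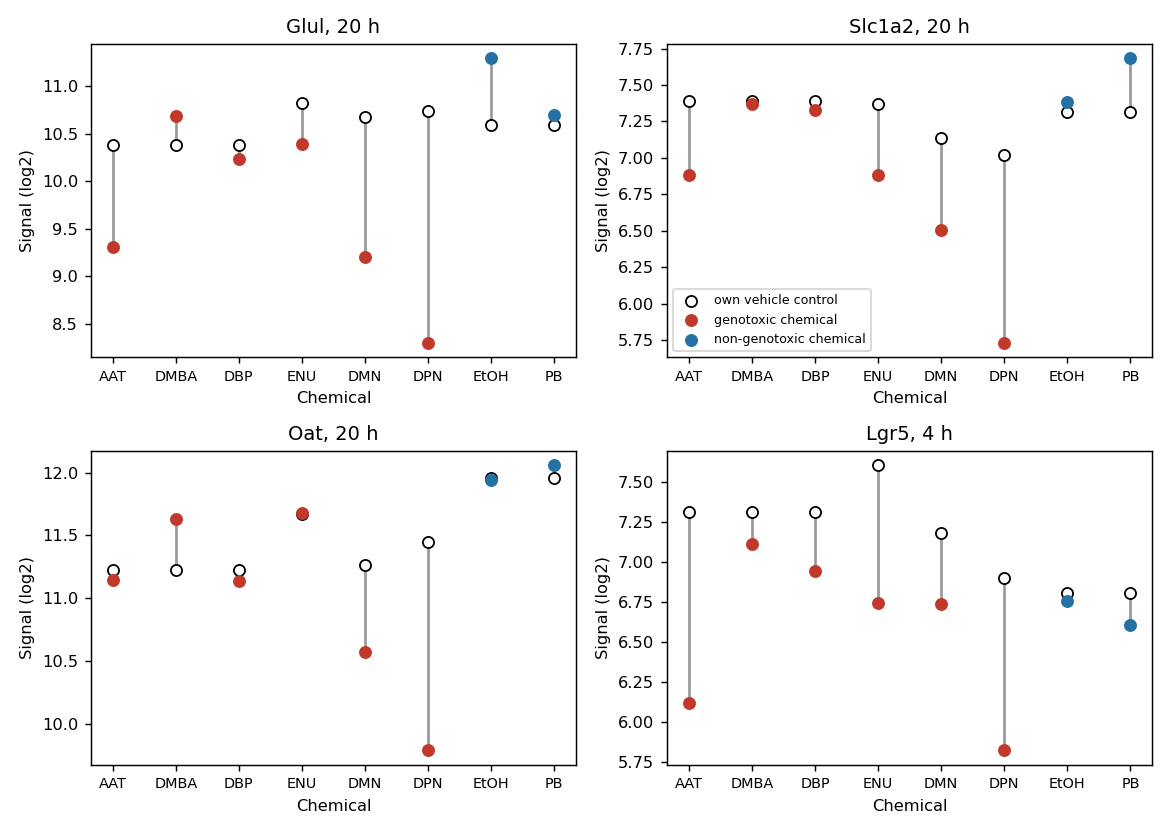
Scaled log2 signal of each treated array (filled, red genotoxic, blue non-genotoxic) and of its own vehicle control (open) for Glul, Slc1a2 and Oat at 20 h and Lgr5 at 4 h, 1 array of pooled RNA a point. DPN gave the lowest Glul, Slc1a2, Oat and Lgr5 points, and for Lgr5 every treated point was below its control.

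Slc1a2 encodes a glutamate transporter that brings glutamate into the pericentral cells which make glutamine. Its signal at 20 h was 118.0 in AAT, 165.4 in DMBA, 160.9 in DBP, 117.8 in ENU, 91.0 in DMN and 53.1 in DPN. The controls were at 167.9 (olive oil), 165.2 (ENU control), 140.9 (DMN control), 129.9 (DPN control) and 158.9 (saline). Every genotoxic array was below its own control, AAT, ENU, DMN and DPN were below all 5 controls, and EtOH (167.0) and PB (205.6) were above the array labelled as their control. That array went against its label, and against the array labelled PB instead EtOH was at -0.30 and the saline array at -0.37, so the direction of the non-genotoxic arrays is not settled. The log2 ratio was -1.29 in DPN, -0.63 in DMN, -0.51 in AAT and -0.49 in ENU, while DMBA (-0.02) and DBP (-0.06) were near 0. The class estimate at 20 h was -0.60 (SE 0.20, n = 6, adjusted p = 0.96). Without DPN it was -0.40.

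At 14 days Slc1a2 was above control in AAT (0.63), DMBA (0.54), DBP (0.66) and ENU (0.59), and below it in DMN (-0.44) and DPN (-0.47). As with Glul, the 3 olive oil ratios rest on 1 control, whose signal of 91.0 was the lowest of the 5. The class estimate was 0.13 (SE 0.21, adjusted p = 0.80), and 0.00 without ENU, 0.29 without DMN and 0.30 without DPN.

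Oat encodes ornithine aminotransferase, a mitochondrial enzyme that turns ornithine toward glutamate. At 20 h it was at 882.5 in DPN and 1517 in DMN against controls of 2794 and 2453, log2 ratios of -1.66 and -0.69. AAT (-0.08), DBP (-0.09) and ENU (0.00) were close to their controls, and DMBA was at 0.40. Oat was thus lower in the 2 nitrosamines and not in AAT, which had a low Glul. The class estimate at 20 h was -0.50 (SE 0.28, adjusted p = 0.96), and -0.17 without DPN. Oat levels also differed between control sets: the 12 arrays of the EtOH and PB set were at 3701 to 4696 at all times, and only 1 of the other 40 arrays (the DPN control of 28 days, 3911) reached that range. Ratios were taken within a set for this reason. Against that high control the DPN ratio of 28 days was -0.72, the lowest of the 6 genotoxic ratios of that time, of which the next was DMN at -0.10.

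The 2 nitrosamines differ in their alkyl groups, which are methyl in DMN and propyl in DPN, and were given at 5 and 250 mg/kg, so their values can only be set side by side. At 20 h Glul was at -1.47 in DMN and -2.44 in DPN, Slc1a2 at -0.63 and -1.29, Oat at -0.69 and -1.66 and Lgr5 at 0.01 and -0.41. For the second Glul probe set the values were -2.14 and -2.23.

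Lgr5, a receptor for R-spondin ligands that amplifies WNT signalling in pericentral hepatocytes, was lowest at 4 h. Its signal at 4 h was 69.5 in AAT, 138.3 in DMBA, 122.7 in DBP, 107.1 in ENU, 106.4 in DMN, 56.5 in DPN, 108.0 in EtOH and 97.1 in PB. The controls were at 158.7 (olive oil), 194.1 (ENU control), 145.1 (DMN control), 119.3 (DPN control) and 111.9 (saline). All 8 treated arrays were below their own control. AAT, ENU, DMN and DPN, and also EtOH and PB, were below all 5 controls. The saline controls alone differed by up to 0.79 in log2, and the ENU control was the highest of the 5. The ratios were 2.28-fold lower in AAT and 2.11-fold lower in DPN (log2 -1.19 and -1.08), followed by ENU (-0.86), DMN (-0.45), DBP (-0.37) and DMBA (-0.20), with PB at -0.20 and EtOH at -0.05.

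At 4 h, 1.2% of all ratios were at least 2-fold lower. The genotoxic class estimate for Lgr5 at 4 h was -0.73 (SE 0.21, n = 6) with an adjusted p of 0.44, and 0 of the 18349 probe sets (0%) were called, while 1785 (9.73%) were under 0.05 before adjustment. The same contrast taken from all 52 arrays together gave Lgr5 an adjusted p of 0.048, and over all alternatives run it went from 0.048 to 1. No marker of other cells was called at 4 h, but most estimates were negative: of 8 Kupffer and macrophage markers 7 had a negative estimate, with a median of -0.23 and the lowest for Mpeg1 (-0.47, SE 0.07, adjusted p = 0.41), and of 7 endothelial markers 5 did, with a median of -0.14 and the lowest for Stab2 (-0.41, SE 0.10, adjusted p = 0.41). Their summed signals overlapped, at 2431 to 3992 in controls and 2273 to 3351 in genotoxic arrays for the first list and 1194 to 1483 and 1095 to 1338 for the second, and their part in the Lgr5 values was not tested. The difference between the genotoxic and the non-genotoxic class was -0.60 (SE 0.45, adjusted p = 1). Over the 4 times, 28 of the 32 Lgr5 ratios were below 0. At 28 days the class estimate was -0.34 (SE 0.09, adjusted p = 0.76, with 0% of probe sets called and 6.08% under 0.05 before adjustment), and the lowest ratio was DMN at -0.64.

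Axin2, a scaffold that helps degrade beta-catenin and is itself switched on by WNT signalling, did not follow the other pericentral genes. Only 1 of its 2 probe sets could be used, since the other was at the floor in all 52 arrays. At 14 days the usable one was at 125.9 in AAT, 99.8 in DMBA, 86.7 in DBP, 109.3 in ENU, 133.8 in DMN and 60.5 in DPN. The olive oil control was at 190.4, the highest of the 5 controls, which otherwise ran from 101.7 to 135.0. The class estimate at 14 days was -0.50 (SE 0.18, adjusted p = 0.40, with 0% of probe sets called and 11.8% under 0.05 before adjustment), and the DBP ratio of -1.14 was the only Axin2 ratio of at least 2-fold. At 20 h Axin2 was at 0.61 in DPN, the array in which Glul, Slc1a2 and Oat were lowest.

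Rhbg, an ammonia channel of pericentral hepatocytes, was near the limit of detection. It was at the floor (a scaled signal of 32.5) in 16 of 52 arrays, so its ratios are often bounds. At 4 h it was at or under the floor in AAT and DBP against an olive oil control of 86.5, which is at least 2.66-fold lower, and at 32.8 in DPN against 71.4. At 28 days it was at 72.8 in DMBA and 101.8 in DBP against an olive oil control at the floor, which is at least 2.24-fold and at least 3.13-fold higher, and at 88.4 in EtOH against a saline control at the floor, at least 2.72-fold higher. DPN was at 33.9 against 109.7 at that time, a log2 ratio of -1.70. With 4 ratios at least 2-fold lower and 3 at least 2-fold higher, Rhbg had no common direction.

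The 2 periportal members with a probe set, Hal and Cps1, varied less than the pericentral ones. Hal encodes histidase, the first enzyme of histidine breakdown, and its 32 log2 ratios ran from -0.47 (EtOH at 14 days) to 0.47 (EtOH at 20 h). The highest value is from the array with the high 3′ to 5′ ratios and its doubtful control, and against the array labelled PB it was 0.12. Cps1, which encodes the mitochondrial enzyme that brings ammonia into the urea cycle, ran from -0.53 (DPN at 20 h) to 0.64 (AAT at 14 days). At 20 h the Cps1 signal was 7022 in DPN against 10120 in its control, and 9246 in DMN against 10158. No ratio of either gene was at least 2-fold in either direction. The Hal signal was at 955.9 in DPN and 1704 in DMN at 20 h against controls of 1213 and 1470, so it was lower in one nitrosamine and higher in the other.

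Over the 8 genes and 32 pairs, 12 of 256 ratios (4.69%) were at least 2-fold lower, against 1.39% of all ratios. All 12 were of pericentral genes, which are 6 of the 8, and 4 of them were of Rhbg, which was often at the floor. The 3 ratios at least 2-fold higher (1.17%, against 1.74% of all ratios) were all of Rhbg. Of these 12, 3 lay in DPN at 20 h, where the median of the 6 pericentral genes was -0.85 and that of all probe sets 0.

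**Figure D3:**
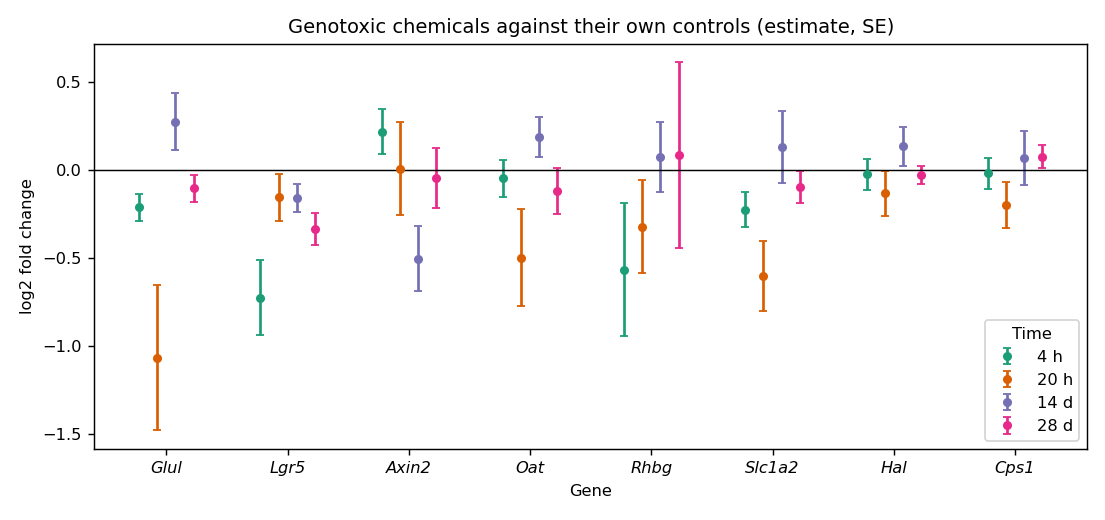
Log2 fold change of the genotoxic chemicals against their own controls for each gene at 4 times, with the SE of the fit as the bar (6 treated arrays a time). Glul at 20 h (-1.07) and Lgr5 at 4 h (-0.73) were the lowest estimates, and none passed an adjusted p of 0.05.

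None of the 8 genes was called in any of the 8 class comparisons. For the genotoxic class against its own controls the same was true of all probe sets. For the genotoxic minus the non-genotoxic class, 0.104% of probe sets were called at 4 h, 0.114% at 20 h, 0.0599% at 14 days and 0.518% at 28 days, and no member was among them. At 20 h all 8 members had a negative difference, with a median of -0.56 against -0.04 over all probe sets, but the EtOH and PB set of that time is the one with the doubtful control. Glul was at -1.47 (SE 0.86, adjusted p = 0.88) there and at -1.17 without the EtOH array (adjusted p = 1). At 28 days Hal had a difference of -0.26 (SE 0.10, adjusted p = 0.35).

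Single chemicals were also tested over their 4 times. DPN was the chemical with the most called probe sets, 76 or 0.414%, and none of the 8 genes was among them. The pericentral estimates were negative for 5 genes, namely Glul (-0.73, SE 0.28, adjusted p = 0.27), Rhbg (-0.71, SE 0.36, adjusted p = 0.42), Oat (-0.67, SE 0.16, adjusted p = 0.066), Slc1a2 (-0.63, SE 0.18, adjusted p = 0.12) and Lgr5 (-0.50, SE 0.17, adjusted p = 0.21), each over n = 4 times. The SE of a gene was the same for every chemical, since the spread was pooled over all of them. These p-values thus do not measure how steady DPN was over its times. For Rhbg the DPN ratios were 0 at 20 h and 14 days, with treated and control arrays at the floor. Its estimate rests on -1.12 at 4 h and -1.70 at 28 days. Without the 20 h array the DPN estimates were -0.16 for Glul, -0.34 for Oat and -0.41 for Slc1a2, and without the 4 h array Lgr5 was at -0.31. The Oat call depends on the scaling: with arrays scaled to their 75th percentile its adjusted p was 0.018 and that of Slc1a2 was 0.047, and with quantile normalization that of Oat was 0.011. Over all alternatives run, the adjusted p went from 0.00699 to 1 for Oat and from 0.000885 to 1 for Slc1a2.

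For the other chemicals, 0.00545% of probe sets were called in AAT and 0% in DMBA, DBP, ENU, DMN, EtOH and PB, with no member among them. In DMBA, ENU, EtOH and PB no member was under 0.05 before adjustment either. In AAT the estimate was -0.44 for Lgr5 and -0.24 for Hal, and in DBP it was -0.47 for Axin2, each with an adjusted p of 1. In DMN Glul was at -0.54, and its second probe set was at -0.76 with an adjusted p of 1. In the controls, the difference between 20 h and 4 h was 0.23 for Hal and -0.75 for Rhbg over the 5 control sets (adjusted p over 0.59 for both), with no member and 0.0109% of probe sets called. The saline array of 20 h that went against its label is among these controls.

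**Figure D4:**
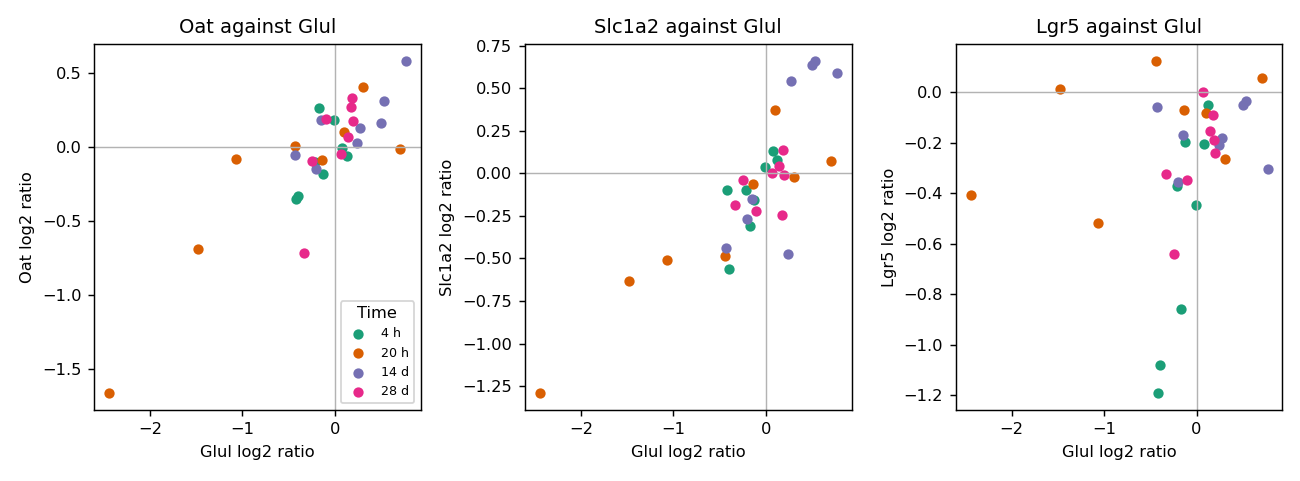
Log2 ratio of Oat, Slc1a2 and Lgr5 (vertical) against that of Glul (horizontal), 1 point for each of 8 chemicals at each of 4 times, coloured by time. Oat and Slc1a2 followed Glul (Pearson r 0.85 and 0.83), and Lgr5 did not (0.24), its lowest points being those of 4 h.

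The ratios of Oat and Slc1a2 ran with those of Glul, and less closely with each other. Over the 32 ratios, which share control arrays and the scaling of each array, Pearson r with Glul was 0.85 for Oat and 0.83 for Slc1a2, and 0.72 and 0.78 over the 24 ratios without 20 h. It was 0.41 for Rhbg, 0.24 for Lgr5 and -0.31 for Axin2. The periportal genes stood between, with 0.69 for Cps1 and 0.48 for Hal. Between Oat and Slc1a2 r was 0.70, and periportal Cps1 was about as close to Slc1a2 (0.67), though less so to Oat (0.50). Among 10747 other genes, the 5 with the highest r to Glul were Dpyd (0.89), which starts pyrimidine breakdown, Abcb11 (0.83), the bile salt export pump, Haao (0.82), an enzyme of tryptophan breakdown, Cadps2 (0.82) and Reln (0.79). This ranking used the same 32 ratios, so low values in DPN at 20 h, the lowest Glul ratio, are in part set by the choice. At 20 h in DPN their log2 ratios were -2.10, -1.39, -0.76, -2.17 and -1.79. In DMN they were -0.43, -0.41, -0.29, -0.48 and -0.71, where Glul was at -1.47. In AAT they were -1.135, -0.27, -0.48, -1.39 and -0.19, where Glul was at -1.07. For Hal the 5 were Cbs, Hgd, Ttc36, Sqor and Srebf1, with r from 0.75 to 0.78.

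The other genes of zonation and nitrogen handling are given as lists. Of 20 WNT pathway genes 13 were measured, and at 4 h 8 of them had a negative genotoxic estimate, with a median of -0.20 against 0.02 over all probe sets and 0 called. The lowest were Apc (-0.51, SE 0.15), which helps degrade beta-catenin, and Tcf7l2 (-0.42, SE 0.17), the transcription factor that beta-catenin joins, with adjusted p of 0.44 and 0.49. Ctnnb1, which encodes beta-catenin, was at 0.02. At 20 h the WNT median was -0.05 with 0 called.

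Other pericentral genes were near 0 at 20 h as a group. Of 18 other pericentral genes 16 were measured, among them the P450 genes Cyp2e1 and Cyp1a2, and their median genotoxic estimate was -0.04 at 20 h, with 9 negative and 0 called. In DPN at 20 h their median was -0.22, with 11 of 16 negative and none at least 2-fold lower. Of 20 other periportal genes 18 were measured, with a median of -0.08 at 20 h and 0 called. In DPN at 20 h their median was -0.18, with 13 of 18 negative, close to the values of the other pericentral genes. Their lowest genotoxic estimate at 20 h was that of G6pc (-0.67, SE 0.29, limma adjusted p = 0.96). At 4 h G6pc was at 0.88 (SE 0.25, limma adjusted p = 0.44). Its ratios in AAT were 1.73 at 4 h and -1.65 at 20 h, beyond all those of Hal and Cps1. Over the 4 times in DPN 1 of the other periportal genes was called, Apoa4 (0.95, SE 0.22, adjusted p = 0.048), an apolipoprotein of lipid transport. Of 18 genes of glutamine and glutamate metabolism 16 were measured, with a median of -0.02 at 20 h and 0 called. The lowest there was Prodh (-0.71, SE 0.29, adjusted p = 0.96), which starts proline breakdown, and its ratio in DPN at 20 h was -1.69, close to that of Oat. Apoa4 was at 2.02 in the same array. Fasting and glucocorticoid genes, all 15 measured, had a median of 0.48 at 4 h, when Lgr5 was lowest, with 11 positive and 0 called, and of 0.01 at 20 h, and Ppp1r3c was the highest of them at 4 h (1.35, SE 0.27, adjusted p = 0.41).

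The ranges of marker sums of other liver cells at 20 h overlapped between controls and genotoxic arrays, but single arrays lay outside the controls. DPN was below all 5 controls for Kupffer (2408), lymphocyte (294.8), pancreatic (248.7) and erythroid (627.0) markers. AAT was below all 5 for hepatocyte (28440), Kupffer (2627), stellate (1094), pancreatic (254.9) and erythroid (554.7) markers, and DMN for endothelial (1039) and pancreatic (262.7) markers. The lowest endothelial (977.4) and pancreatic (230.2) sums, also below all 5 controls, lay in genotoxic arrays other than DPN, AAT and DMN. Low sums were thus not limited to the arrays with the lowest Glul. The summed signal of endothelial markers, 7 of 8 measured, was 1042 to 1232 in the controls and 977.4 to 1265 in the genotoxic arrays. It was 2659 to 3462 and 2408 to 3272 for Kupffer and macrophage markers (8 of 8) and 1098 to 1725 and 1094 to 1242 for stellate markers (6 of 6), to which Reln belongs. Cholangiocyte markers (4 of 6, 1 of them at the floor in all arrays) were at 45.4 to 127.6 and 64.8 to 118.8. Lymphocyte markers (5 of 6) were at 296.6 to 399.4 and 294.8 to 350.1, pancreatic acinar markers (4 of 6, 1 at the floor in all arrays) at 267.3 to 427.2 and 230.2 to 284.6, and erythroid markers (2 of 3) at 740.5 to 1250 and 554.7 to 1294. Hepatocyte markers were at 34430 to 53380 and 28440 to 44100. The part of these cells in the member values was not tested.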

How the data were processed

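Liver RNA pooled from 5 mice a group was hybridised to 52 Affymetrix arrays. The authors deposited linear signal intensity for 22690 probe sets, with software and scaling not given in the sources used here. Per-sample columns not used: 0. Affymetrix control probe sets (64) were left out. Arrays were brought to a common median (the mean of the 52 array medians), low values were raised to the 30th percentile (32.5), and probe sets above that floor in at least 4 arrays were kept (18349). A gene with several probe sets was represented by the brightest.

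limma 3.58.1 in R 4.3.3 was run on log2 values (lmFit, eBayes with trend, Benjamini-Hochberg over all 18349 probe sets, called under 0.05). At each time, class coefficients were fitted with control set as a block (6 residual degrees of freedom). Genotoxic chemicals with a control of their own weigh more in that fit than those with a shared control. Each chemical was fitted over its 4 times with control set within time as a block (24 residual degrees of freedom), and controls of 20 h and 4 h with control set as a block. In the fit of chemicals the spread was pooled over all of them. The fits were tested on simulated data first. The number of arrays limits the precision, and no depth applies. Single ratios to the own control carry no test. All members are described, those with an unadjusted p under 0.05 or a ratio of at least 2-fold by name. Of the other lists, genes called or among the largest changes are named. Members and lists were chosen with earlier results of these data known. Alternatives were other scalings, floors and filters, fits without trend or block, and leaving out arrays. Figures were drawn with matplotlib.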

Additional observations from a re-analysis of the deposited data

Results flagged for a closer look

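In 3 of 64 groups of control signals or genotoxic ratios, 1 array stood far from the rest, and chance alone gives about 1 in 20. For Glul at 4 h this was the DMN control, with a log2 signal of 10.07 against 10.58 for the next of the 5 controls. For Oat at 14 days it was the saline control of EtOH and PB, at 12.00 against 11.08, and all arrays of that set were high for Oat. For Oat at 28 days it was the DPN ratio, at -0.72 against -0.10.

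On its brighter probe set, Glul at 4 h was lower than control in all 6 genotoxic chemicals and higher in EtOH and PB. The difference between the classes was -0.32 (limma, adjusted p = 1). The second probe set lost this pattern, with 4 of 6 genotoxic ratios below control. There DBP was at 0.04, ENU at 0.24 and PB at -0.01. With the arrays as labelled, Slc1a2 at 20 h was lower in all 6 genotoxic chemicals and higher in EtOH and PB. Its difference was -0.82 (limma, adjusted p = 0.88), and -0.97 (adjusted p = 1) without the EtOH array of that time. Both non-genotoxic values rest on the saline control that went against its label: against the array labelled PB, EtOH was at -0.30 and the saline array at -0.37, so the pattern was lost.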

How the results depend on the processing

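The count of members called stayed at 0 in 280 of 284 recalculations over 17 comparisons, including all that left out a chemical, a time, a control set or an array. For DPN over the 4 times it became 2 with scaling to the 75th percentile (Oat and Slc1a2), 1 with quantile normalization (Oat) and 4 without the control-set block (Glul, Lgr5, Oat and Slc1a2), and for the genotoxic class at 4 h it became 1 in a fit of all 52 arrays (Lgr5). Of 262 values of single members 1 turned its sign: the difference of Hal at 28 days was 0.43 with the signals as deposited. The genotoxic estimate of Glul at 20 h ran from -1.25 to -0.67 and that of Lgr5 at 4 h from -0.80 to -0.58. The DPN estimate of Glul over the 4 times ran from -1.06 (without 14 days) to -0.16 (without 20 h). Of 78 recalculated 2-fold ratios 14 moved by more than the spread of the controls, and none turned its sign. The DMN set at 14 days, the PB array of 28 days and the EtOH array of 20 h were left out, and 20 h ratios taken against the array labelled PB, by choices made after seeing the data. Without the EtOH and PB set at 20 h, the difference between classes at that time cannot be computed. Treated arrays were tied to their own controls through the control set, which was a term of the fits. No paired analysis was possible because the labels give no replicate numbers, other than through that term. The number of arrays and the lack of repeats limit every value.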
